A study of Caenorhabditis elegans with 6 samples.

Results

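The genes described here are 10 regulators of germline messenger RNA in the nematode Caenorhabditis elegans, out of 14605 worm gene rows in the count table. They were listed by protein family. The CCCH zinc finger genes are oma-1, oma-2, pos-1 and pie-1, the KH domain genes are gld-1 and mex-3, the Pumilio genes are fbf-1 and fbf-2, and the Nanos genes are nos-1 and nos-2. All 10 were found in the table through their sequence names. The genes were chosen by family and function with their intestinal against non-intestinal count values in these libraries already known. Those values are given below as a description, and nothing is read from their direction.

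RNA was taken from pools of 500 sorted cells of larvae in the first stage (L1), selected at a DNA content of 4N, meaning doubled DNA. Intestinal cells gave 3 libraries, and dividing cells of that stage from outside the intestine gave another 3. Animals of both groups carried the same transgene, ccyIS27. In it elt-2p, the promoter of the intestinal transcription factor gene elt-2, drives a membrane marker (mCherry-PH) and a histone marker (H2B-mCherry) joined through P2A. The labels call the libraries biological replicates and do not name the cell types within the non-intestinal pools. The method was an adapted CEL-seq, which reads the 3′ end of transcripts. Its counts were not divided by transcript length here, and levels are compared between libraries, not between genes.

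Germline RNA-binding regulators act on mRNAs that are made in the germline and held back, localised or destroyed later. FBF proteins keep germline stem cells dividing by repressing mRNAs such as that of gld-1, and GLD-1 in turn represses many oogenesis mRNAs. OMA-1 and OMA-2 act in oocytes, MEX-3, POS-1 and PIE-1 act in the early embryo, and Nanos proteins act in primordial germ cells. In the newly hatched larva the germline consists of primordial germ cells, which begin to divide in this stage.

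Between 1222704 and 21040813 counts fell on worm genes in a library, with replicate 3 the shallowest in both groups. Reporter counts were 147, 92 and 4 in intestinal replicates 1, 2 and 3, against 1, 0 and 0 in the non-intestinal replicates. The intestinal gene elt-2 had 512, 662 and 74 counts in intestinal replicates 1, 2 and 3, against 1, 38 and 0 in the non-intestinal replicates. All 13 germline markers found in the table (such as glh-1 and pgl-1) had negative log2 fold changes and 12 passed the test. Over all 9203 tested genes 7.64% were called lower. Their summed level ranged from 63.9 to 232 CPM (counts scaled to library size with TMM factors) in intestinal libraries, against 1378 to 2023 CPM in non-intestinal libraries. Muscle markers ranged from 779 to 2224 CPM in intestinal libraries, against 1306 to 3578 CPM in non-intestinal libraries. Of 7 tested muscle markers 7 had negative log2 fold changes, with a median of −1.32, and 0 were called. The marker unc-54 had 17618, 18301 and 863 counts in intestinal libraries, against 11769, 23102 and 1041 in non-intestinal ones. The muscle myosin gene myo-3, which was not tested, had 0 counts in each intestinal library and at most 1 count in a non-intestinal one. Neuron markers ranged from 236 to 860 CPM in intestinal libraries, against 338 to 519 CPM in non-intestinal ones. Of 8 tested neuron markers 1 was called higher, egl-21 (2.08 ± 0.53, SE, edgeR adjusted p = 0.018), and 0 lower. Epidermis markers ranged from 47.1 to 143 CPM in intestinal libraries, against 355 to 437 CPM in non-intestinal ones, and these ranges did not overlap. Of 6 tested epidermis markers 5 had negative log2 fold changes, nhr-23 was called lower (−3.47 ± 0.78, edgeR adjusted p = 0.011) and elt-3 was called higher (2.18 ± 0.71, SE, edgeR adjusted p = 0.049). Somatic gonad markers ranged from 4.79 to 48.4 CPM in intestinal libraries, against 85.6 to 120 CPM in non-intestinal ones. Of these, lag-2 had 3, 38 and 2 counts in intestinal libraries, against 348, 677 and 13 in non-intestinal ones, and was called lower (−4.56 ± 1.14, SE, edgeR adjusted p = 0.018). The marker tra-1 had 114, 803 and 4 counts in intestinal libraries, against 409, 1887 and 141 in non-intestinal ones (−1.91 ± 0.86, SE, edgeR adjusted p = 0.14). The other somatic gonad markers, ehn-3, hnd-1 and lim-7, had from 0 to 1 count in intestinal libraries, against 0 to 13 counts in non-intestinal ones. Epidermis and somatic gonad marker sums were thus lower in intestinal libraries, as the regulators were, and their part in the regulators' values was not tested. These single markers were named after their values were seen.

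Of the 10 regulators, 9 passed the filter on low counts and were tested, and nos-2 was not. The 9 had log2 fold changes of intestinal over non-intestinal cells from −7.82 (oma-2) to −3.24 (oma-1), with a median of −4.55. The median over all 9203 tested genes was −0.34. In 8 of the 9 the edgeR adjusted p was under 0.05, where 7.64% of all tested genes were called lower. The count was between 6 and 9 when 1 library was left out, with 6 in the fits lacking intestinal replicate 1 or non-intestinal replicate 2. In 9 of the 9 the 3 intestinal values lay below the 3 non-intestinal values, which was true of 23.5% of all tested genes. Both counts come from the contrast known when the list was made. In pools of cells, fewer cells of a type and less RNA per cell cannot be told apart.

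**Figure D1:**
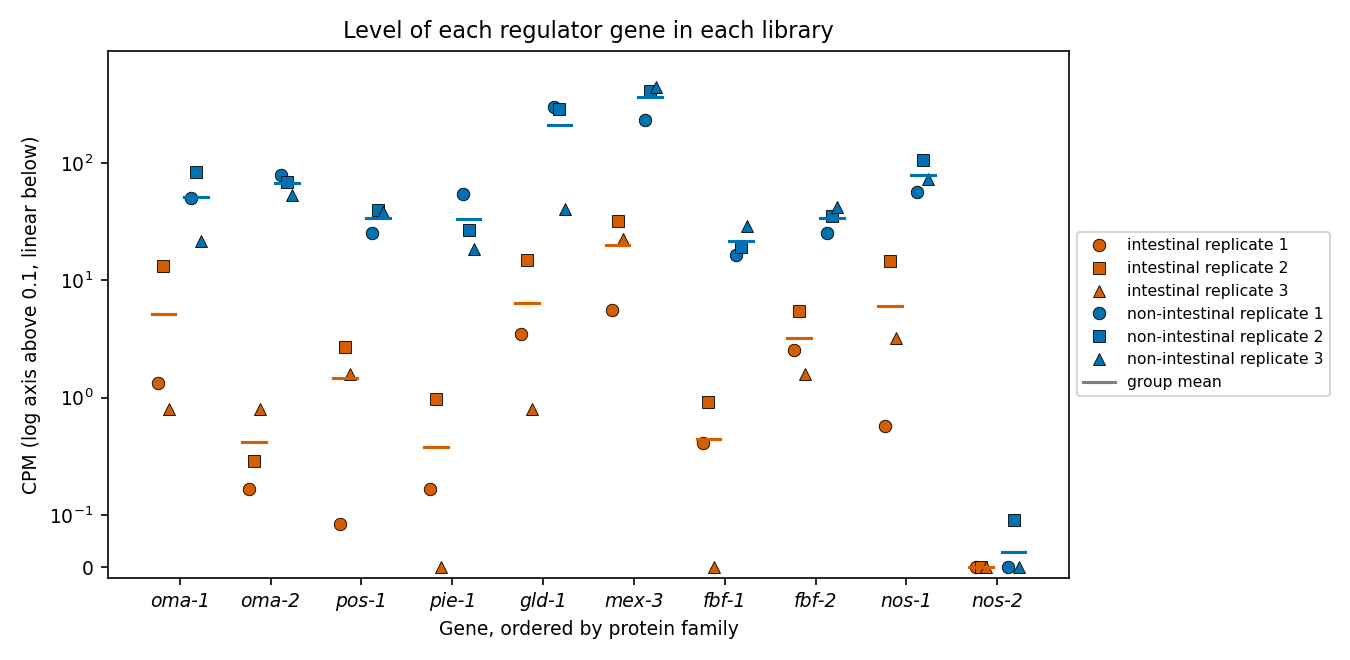
Level of each regulator in each library, as CPM on an axis that is logarithmic above 0.1 and linear below, with intestinal libraries left of non-intestinal ones and bars at the group means. For each tested gene the intestinal points lie below the non-intestinal ones, intestinal replicate 2 is often the highest of its group, and nos-2 lies at or near 0 throughout.

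The CCCH gene oma-2 (ZC513.6) encodes a protein that works redundantly with OMA-1 in oocyte maturation. It had 2, 5 and 1 counts in intestinal replicates 1, 2 and 3, against 500, 1516 and 99 in the non-intestinal replicates. As CPM this was 0.166, 0.287 and 0.799 in intestinal libraries, against 79.5, 68.7 and 53.7 in non-intestinal libraries. The intestinal values rest on at most 5 counts, so the fitted log2 fold change of −7.82 ± 0.92 (SE) is set by counts near the floor. The floor of 3 counts corresponds to 2.40 CPM in intestinal replicate 3, above the level measured there.

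The related gene oma-1 (C09G9.6) had 16, 231 and 1 counts in the intestinal libraries, against 314, 1841 and 40 in the non-intestinal libraries. This was 1.33, 13.3 and 0.799 CPM in intestinal libraries, against 49.9, 83.4 and 21.7 CPM in non-intestinal libraries. The groups did not overlap, and the highest intestinal value (replicate 2) came closest to the lowest non-intestinal value (replicate 3). Its log2 fold change was −3.24 ± 1.06 (SE), and it was the tested regulator that did not pass the threshold (edgeR adjusted p = 0.051). With the replicate number as a block it did, at −4.07 ± 0.88 (edgeR adjusted p = 0.0067). Over 13 other settings of filter, scaling, tool, block, depth and libraries left out, its edgeR or DESeq2 adjusted p ranged from 0.003 to 0.17, and 9 of them called it. Leaving out intestinal replicate 2 gave a log2 fold change of −5.44, and non-intestinal replicate 2 gave −2.50.

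The gene pos-1 (F52E1.1) encodes a maternal protein needed for posterior fates in the embryo. It had 1, 47 and 2 counts in the intestinal libraries, against 158, 869 and 70 in the non-intestinal libraries. It averaged 1.46 ± 1.31 CPM in intestinal libraries, against 34.1 ± 7.85 CPM in non-intestinal ones (SD, 3 libraries each). Its non-intestinal levels were close together, between 25.1 and 39.4 CPM. The log2 fold change was −4.55 ± 1.12 (SE). It was −6.16 without intestinal replicate 2 and −3.88 without intestinal replicate 1, and it missed the threshold without non-intestinal replicate 2 (−4.14, edgeR adjusted p = 0.058).

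The gene pie-1 (Y49E10.14) encodes a protein that holds transcription back in the germline blastomeres of the embryo. It had 2, 17 and 0 counts in the intestinal libraries, against 340, 590 and 34 in the non-intestinal libraries. Its level was 0.381 ± 0.523 CPM in intestinal libraries, against 33.1 ± 18.6 CPM in the non-intestinal ones (SD, n = 3 per group), and the log2 fold change was −6.01 ± 1.12 (SE). Leaving out intestinal replicate 2 gave −7.72, and non-intestinal replicate 1 gave −5.38. The 3′ end of pie-1 overlaps the gene snr-6 on the opposite strand by 24 bases. The level of snr-6 was 53.8 ± 51.7 CPM in intestinal libraries, against 73.1 ± 22.0 CPM in the non-intestinal ones (SD, n = 3 per group), and its log2 fold change was −0.43 ± 0.77 (SE).

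The KH domain gene gld-1 (T23G11.3) encodes a STAR family protein that promotes entry into meiosis and represses the translation of oogenesis mRNAs. It had 42, 259 and 1 counts in the intestinal libraries, against 1880, 6367 and 75 in the non-intestinal libraries. Its level was 3.48, 14.9 and 0.799 CPM in intestinal libraries, against 299, 288 and 40.6 CPM in non-intestinal libraries. Non-intestinal replicate 3 stood well below replicates 1 and 2, and the coefficient of variation of 69.8% was the highest among the 9 tested regulators. The log2 fold change was −4.93 ± 1.06 (SE). With 1 library left out it ranged from −6.35 without intestinal replicate 2 to −4.42 without non-intestinal replicate 2, and was −5.25 without non-intestinal replicate 3.

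The gene mex-3 (F53G12.5) encodes a repressor of the homeobox mRNA pal-1 in the early embryo. Its level was 5.63, 32.3 and 22.4 CPM in intestinal libraries, from 68, 562 and 28 counts, against 231, 411 and 440 CPM in non-intestinal libraries. It was the only regulator with more than 5 counts in intestinal replicate 3. Its log2 fold change of −4.17 ± 0.71 had the smallest SE among the 9.

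The Pumilio genes fbf-1 (H12I13.4) and fbf-2 (F21H12.5) encode near-identical proteins that keep germline stem cells in division. The level of fbf-1 was 0.414, 0.919 and 0 CPM in intestinal libraries, from 5, 16 and 0 counts, against 16.4, 19.3 and 29.3 CPM in non-intestinal libraries. The level of fbf-2 was 2.57, 5.51 and 1.60 CPM in intestinal libraries, from 31, 96 and 2 counts, against 25.1, 35.0 and 42.3 CPM in non-intestinal libraries. Both were highest in non-intestinal replicate 3, the library in which gld-1 and oma-1 were lowest. Their log2 fold changes were −5.22 ± 1.06 for fbf-1 and −3.32 ± 0.81 for fbf-2 (SE). Without intestinal replicate 2 they were −5.98 for fbf-1 and −3.92 for fbf-2, and without intestinal replicate 1 fbf-2 missed the threshold (−3.12, edgeR adjusted p = 0.073). The treatment of reads that match both genes is not given in the sources used here, so their separate values are uncertain. With their counts added into 1 row the log2 fold change was −3.83 ± 0.77 (SE).

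The Nanos gene nos-1 (R03D7.7), which acts in the survival and division of primordial germ cells, had 7, 252 and 4 counts in the intestinal libraries, against 357, 2329 and 135 in the non-intestinal libraries. Its level was 0.580, 14.5 and 3.20 CPM in intestinal libraries, against 56.7, 106 and 73.2 CPM in non-intestinal libraries. The log2 fold change was −3.63 ± 1.02 (SE). Leaving out intestinal replicate 2 gave −5.70, and leaving out intestinal replicate 1 gave −3.05. In 3 of 6 fits with 1 library left out nos-1 did not pass the threshold, those lacking intestinal replicate 1, intestinal replicate 3 or non-intestinal replicate 2 (edgeR adjusted p = 0.058, 0.076 and 0.092).

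The other Nanos gene, nos-2 (ZK1127.1), has a maternal mRNA that is translated in the primordial germ cells of the embryo. It had 2 counts in non-intestinal replicate 2 and 0 in each of the other 5 libraries, so both groups were at the floor and no fold is given. The upper limit behind a 0, set at 3 counts, equals 0.172 to 2.40 CPM in intestinal libraries, against 0.136 to 1.63 CPM in non-intestinal libraries. This limit covers counting error only. All 1434 bases of nos-2 lie inside the gene him-14, a meiotic recombination gene on the opposite strand. The level of him-14 was 0.0957 ± 0.166 CPM in intestinal libraries, against 3.13 ± 1.61 CPM in the non-intestinal ones (SD, n = 3 per group). Strand use in the counting is not given in the sources used here, so reads of nos-2 and him-14 cannot be told apart.

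The genes do not sit together in the genome. By the RefSeq table of assembly WBcel235, a build that the submitters' processing notes also name, oma-1 lies on chromosome IV from 8888976 to 8890999. On chromosome V, oma-2 lies from 8029439 to 8031214 and pos-1 from 8414085 to 8415254. The gene pie-1 lies on chromosome III from 12426893 to 12429195. On chromosome I, gld-1 lies from 7695681 to 7698222 and mex-3 from 127285 to 134270. The other 4 are on chromosome II, with fbf-1 from 6078263 to 6080843, fbf-2 from 6088863 to 6091480, nos-1 from 10951592 to 10953165 and nos-2 from 7065618 to 7067051. The FBF genes are 8019 bases apart on the same strand. By the Ensembl annotation of the same assembly, both have 8 exons and their proteins have 614 and 632 residues. The OMA genes have 6 exons each, with 407 and 393 residues.

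Neighbouring genes varied in both directions. The nearest protein-coding genes on each side were 19 genes, of which 13 were tested. Their median log2 fold change was −0.11, 1 was called lower and 0 higher. The called neighbour was vha-18, a vacuolar proton pump subunit gene beside pos-1, with 1.46 ± 1.41 CPM in intestinal libraries, against 22.8 ± 15.1 CPM in the non-intestinal ones (SD, n = 3 per group; edgeR adjusted p = 0.030). The neighbours of oma-2, F43H9.4 and vars-1, had log2 fold changes of 0.63 ± 1.27 and 0.57 ± 1.00 (SE). Beyond 4 on the log2 scale but not past the threshold were F53G12.4 beside mex-3 (−4.85 ± 1.74), him-14 (−4.44 ± 1.57) and nspg-3 beside fbf-2 (4.20 ± 1.58, SE), with edgeR adjusted p from 0.068 to 0.083.

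The intestinal libraries were not alike in what they held of the regulators. The summed level of the 10 genes was 14.4, 85.3 and 31.2 CPM in intestinal replicates 1, 2 and 3, against 836, 1077 and 757 CPM in the non-intestinal replicates. The level in intestinal replicate 2 was above that in intestinal replicate 1 for 9 of the 9 tested regulators, with a median ratio of 5.73. Over the 8878 tested genes with counts in intestinal replicate 1 the median of this ratio was 1.03, and 51.9% were above 1. The lowest ratio among the regulators, that of oma-2 from 2 and 5 counts, was reached by 24.5% of these genes. The ratio was 24.96 (95% counting interval 11.9 to 62.7) for nos-1, 10.01 (6.03 to 17.8) for oma-1 and 4.28 (3.08 to 6.07) for gld-1. For oma-2 it was 1.73 (0.284 to 18.2) and for fbf-1 2.22 (0.777 to 7.74), and both intervals include 1.

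The sums of other lists did not all move with this difference between intestinal replicates 2 and 1. The summed level in replicate 2 was 0.989 times that in replicate 1 for the family relatives described below, 1.10 times for partners and 0.525 times for reported targets. Genes of high level weigh most in such sums, such as the relative hrpk-1 (127 CPM in replicate 1 and 126 CPM in replicate 2). The partner dlc-1 had 1118 and 1407 CPM. Single relatives with counts in replicate 1 had ratios from 0.139 (puf-11) to 30.6 (puf-8). Such partners had ratios from 0.685 (gls-1) to 17.8 (fog-1). These genes were named after their values were seen. The target sum was mostly mpk-1 and skn-1, with 586 and 494 CPM in replicate 1, against 275 and 186 CPM in replicate 2. Of 13 germline markers 13 were higher in replicate 2. The summed level of that list was 2.87 times that in replicate 1, where the regulators' sum was 5.92 times as high. Ratios of single genes ranged from 1.09 to 14.2 for germline markers and from 1.73 to 32.6 for the tested regulators. The sum was 1.36 times as high for epidermis markers, 1.34 times for neuron markers, 0.695 times for muscle markers and 0.878 times for intestine markers. Among neuron markers egl-21 had 261 CPM in replicate 1 and 509 CPM in replicate 2, while snb-1 had 251 and 189 CPM. Both genes were named after their values were seen. The somatic gonad sum was 4.99 times as high, but it was mostly 1 gene, tra-1, with 46.1 CPM in replicate 2 and 9.45 CPM in replicate 1. The part of these other cells in the regulators' values was not tested. Set against the non-intestinal library of the same number, the level in intestinal replicate 2 ranged from 0.418% (0.136% to 0.978%) for oma-2 to 15.9% (13.8% to 18.2%) for oma-1. The median over the tested regulators was 6.86%. For germline markers the level ranged from 4.87% to 57.3%, with a median of 10.3%. The highest was mes-2, the germline marker that was not called (edgeR adjusted p = 0.11), and the next was csr-1 at 18.8%. These markers were named after their values were seen. The intervals of oma-2 and oma-1 did not overlap. These intervals cover counting error only.

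**Figure D2:**
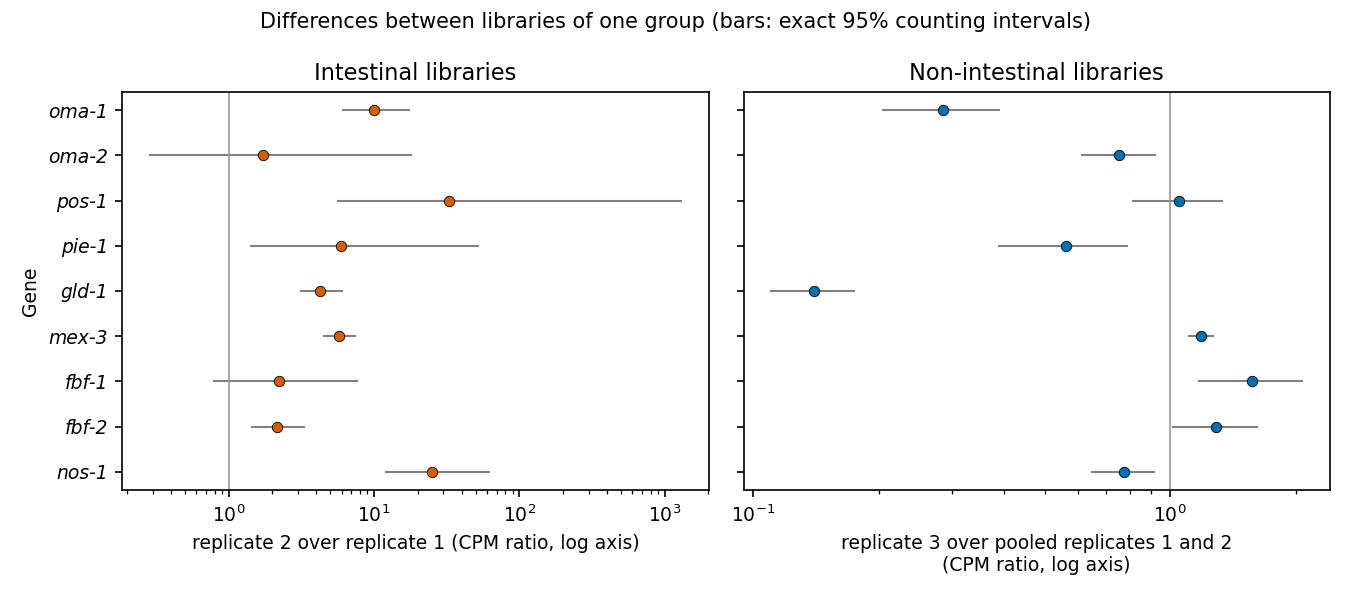
Ratio of CPM between libraries of one group for the 9 tested regulators, on log axes, with exact 95% counting intervals. The left panel divides intestinal replicate 2 by intestinal replicate 1, where each ratio is above 1, and the right panel divides non-intestinal replicate 3 by pooled non-intestinal replicates 1 and 2, where gld-1 lies lowest at 0.140.

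The non-intestinal libraries also differed, and the regulators differed in opposite directions. Replicate 3 divided by pooled replicates 1 and 2 gave 0.140 (0.110 to 0.175) for gld-1, 0.285 (0.203 to 0.390) for oma-1 and 0.562 (0.387 to 0.791) for pie-1. The same ratio was 1.57 (1.17 to 2.08) for fbf-1, 1.29 (1.01 to 1.62) for fbf-2 and 1.19 (1.10 to 1.27) for mex-3. For pos-1 it was 1.05 (0.811 to 1.34), with an interval that includes 1. Against the mean of replicates 1 and 2, 5 of the 9 tested regulators (55.6%) were lower in replicate 3. This is near the 56.5% of 9073 tested genes with counts in replicates 1 or 2. The median ratio to that mean was 0.902 for the regulators and 0.848 for those genes. Among all tested genes, 17.2% were as low as gld-1 or lower in replicate 3 relative to the mean of replicates 1 and 2. The median coefficient of variation over the 3 non-intestinal libraries was 31.3% for the 9 tested regulators and 42.8% for the 3797 tested genes within their range of levels.

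The related lists of relatives and targets did not move as one in non-intestinal replicate 3. Relative to the mean of replicates 1 and 2, 12 of 18 tested relatives and 10 of 18 tested targets were lower there, as were 56.5% of 9073 tested genes with counts in replicates 1 or 2. The list sums were 0.809 of that mean for relatives and 0.954 for targets. Some genes named after their values were seen were far higher there, with a ratio of 4.54 for the target tra-2 and 3.81 for the relative puf-12, and others were far lower. The level of mex-5, a CCCH gene that patterns the embryo, was 377, 216 and 40.1 CPM in non-intestinal replicates 1, 2 and 3. That of puf-5, an oogenesis Pumilio gene, was 33.7, 47.3 and 0.542 CPM, and that of neg-1, an embryonic target of POS-1, 46.6, 31.2 and 0.542 CPM. The germline marker sum of replicate 3 was 1.03 times the mean of replicates 1 and 2, so the list of germline markers was not low there. The germline helicase gene glh-1 had 82.8, 173 and 329 CPM in the 3 libraries and was highest in replicate 3.

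Related genes divided their summed counts differently between libraries. The share of oma-1 in the sum of oma-1 and oma-2 was 88.9% (95% Clopper-Pearson interval 65.3% to 98.6%) and 97.9% (95.1% to 99.3%) in intestinal replicates 1 and 2, and intestinal replicate 3 had only 2 counts of the pair. In non-intestinal replicates 1, 2 and 3 it was 38.6% (35.2% to 42.0%), 54.8% (53.1% to 56.5%) and 28.8% (21.4% to 37.1%). At this depth the interval of non-intestinal replicate 2 did not overlap those of replicates 1 and 3. At equal depth the 3 non-intestinal values were 42.8% (36.0% to 49.8%), 50.0% (43.3% to 56.7%) and 27.4% (19.1% to 36.9%). There the intervals of replicates 1 and 2 overlapped, and that of replicate 3 overlapped that of replicate 1. The interval of replicate 3 stayed below that of replicate 2. These intervals take each count as an independent molecule, and the use of molecular identifiers is not given in the sources used here.

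The share of fbf-1 in the sum of fbf-1 and fbf-2 was steadier among the non-intestinal libraries. It was 13.9% (4.67% to 29.5%) and 14.3% (8.39% to 22.2%) in intestinal replicates 1 and 2, against 39.5% (33.5% to 45.7%), 35.5% (32.8% to 38.3%) and 40.9% (32.4% to 49.8%) in the non-intestinal replicates. The 3 non-intestinal intervals overlapped one another, and those of intestinal replicates 1 and 2 lay below them. At equal depth intestinal replicates 1 and 2 had only 5 counts of the pair each, with 0 of fbf-1 (0% to 52.2%). The non-intestinal shares there were 32.4%, 33.7% and 37.0%, and the intestinal intervals included them. Intestinal replicate 3 had 0 counts of fbf-1 and 2 of fbf-2.

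**Figure D3:**
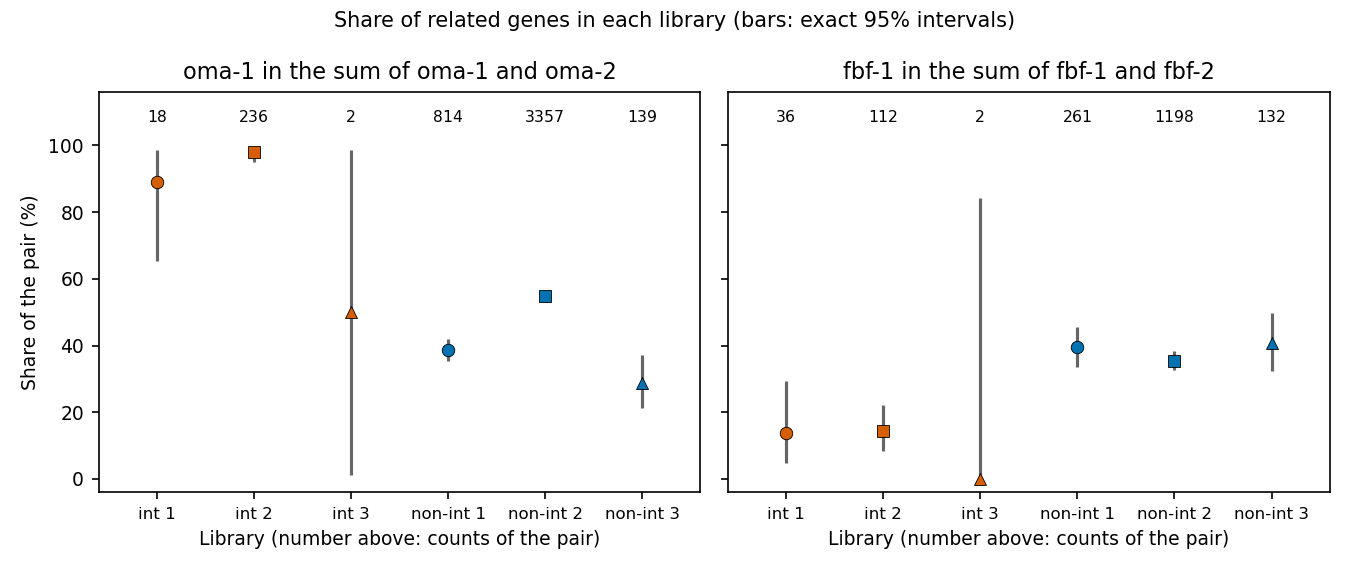
Share of oma-1 in the counts of the OMA pair and of fbf-1 in the counts of the FBF pair, in percent for each library, with exact 95% intervals and the counts of the pair above each point. The oma-1 share spreads from 28.8% to 54.8% over the non-intestinal libraries, while the fbf-1 share stays between 35.5% and 40.9%.

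Lists of family relatives, partners and targets were set beside the regulators, drawn from general knowledge with earlier results of these data known. Of 18 tested family relatives, 7 were called lower in intestinal cells and 0 higher, with a median log2 fold change of −2.76. Over all 9203 tested genes 7.64% were called lower and the median was −0.34, and these values also stand beside the partners and targets below. Without intestinal replicate 1 only 3 were called lower. The called CCCH relatives were mex-6 (−4.77 ± 1.02), mex-5 (−4.32 ± 1.02) and mex-1 (−4.31 ± 0.92, SE), with edgeR adjusted p from 0.0084 to 0.013. These genes act in polarity and germ plasm of the early embryo. The Pumilio relative puf-11 had 5, 1 and 2 counts in intestinal libraries, against 100, 664 and 41 in non-intestinal libraries, with a fitted log2 difference of −5.73 and SE of 1.27 (edgeR adjusted p = 0.0099). Its near relative puf-3 had 0, 0 and 1 counts in intestinal libraries, against 102, 325 and 29 in non-intestinal libraries, and was at least 16.6-fold lower against the mean floor of 3 counts per intestinal library. How reads that match both puf-3 and puf-11 were counted is not given in the sources used here, so their separate values are uncertain. The KH gene gld-3, a partner of FBF proteins, had −3.32 ± 0.94 (SE, edgeR adjusted p = 0.030). The seventh called relative, the Nanos gene nos-3, was named after its values were seen and had −2.44 ± 0.63 (SE, edgeR adjusted p = 0.020).

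Of the relatives that did not pass the test, those nearest to 0 were puf-12, fubl-1 and ccch-1. The level of puf-12 was 103, 91.0 and 284 CPM in intestinal libraries, against 141, 48.3 and 360 CPM in non-intestinal libraries, and its log2 fold change was −0.20 ± 0.73 (SE). For fubl-1 it was −0.60 ± 0.60 and for the zinc finger gene ccch-1 0.79 ± 0.78 (SE). Over the list the fitted values ranged from −7.94 to 2.01.

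Partners are proteins that bind the regulators or act on the same mRNAs. Of 23 tested partners, 9 were called lower and 0 higher, with a median log2 fold change of −1.43. Leaving out intestinal replicate 1 gave 3 called partners, as did leaving out non-intestinal replicate 2. The sex determination genes fog-1, a CPEB protein, and fog-3 had log2 fold changes of −4.09 ± 1.07 and −4.46 ± 1.17 (SE, edgeR adjusted p = 0.021 each). The CPEB relative cpb-3 had −4.35 ± 1.30, the DAZ family gene daz-1 −4.01 ± 0.79, the POS-1 partner spn-4 −3.84 ± 0.90 and the GLD-2 partner rnp-8 −3.11 ± 0.97 (SE, edgeR adjusted p from 0.0058 to 0.044).

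The poly(A) polymerase gene gld-2 encodes the enzyme that GLD-3 and RNP-8 bind. Its level was 53.8 ± 26.2 CPM in intestinal libraries, against 62.2 ± 23.5 CPM in the non-intestinal ones (SD, n = 3 per group), with a fitted log2 difference of −0.21 and SE of 0.61 (edgeR adjusted p = 0.83). The level of lin-41, a gene of oocytes that also acts in somatic timing, was 97.0 ± 31.9 CPM in intestinal libraries, against 90.7 ± 18.8 CPM in the non-intestinal ones (SD, n = 3 per group), with 0.10 ± 0.53 (SE). For the ataxin-2 gene atx-2 the log2 fold change was −0.15 ± 0.61 (SE). Whether these differed from the regulators' fold changes was not tested.

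Reported targets are mRNAs that the regulators are known to bind or repress. Of 18 tested targets, 8 were called lower and 0 higher, with a median log2 fold change of −3.15. Leaving out intestinal replicate 1 gave 1 called target, non-intestinal replicate 1 gave 3, and non-intestinal replicate 2 gave 2. The Notch receptor gene glp-1, repressed by GLD-1 and POS-1, had 0, 0.287 and 0.799 CPM in intestinal libraries, against 51.5, 21.2 and 51.5 CPM in non-intestinal libraries. The yolk receptor gene rme-2, repressed by GLD-1, had a log2 fold change of −4.46 ± 1.31 and the p53 gene cep-1 −4.02 ± 1.04 (SE). The chromosome axis gene htp-1 had −3.73 ± 0.88, the synapsis gene syp-3 −3.62 ± 1.14 and zif-1, held back by OMA proteins, −3.42 ± 0.97 (SE). The edgeR adjusted p of these 5 ranged from 0.013 to 0.045.

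Of the targets that did not pass the test, those nearest to 0 were skn-1, mpk-1 and tra-2. The log2 fold change was 0.44 ± 0.62 for skn-1, a stress and endoderm transcription factor gene, and 0.59 ± 0.56 for the MAP kinase gene mpk-1 (SE). For the sex determination gene tra-2 it was −1.04 ± 0.94 (SE).

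**Figure D4:**
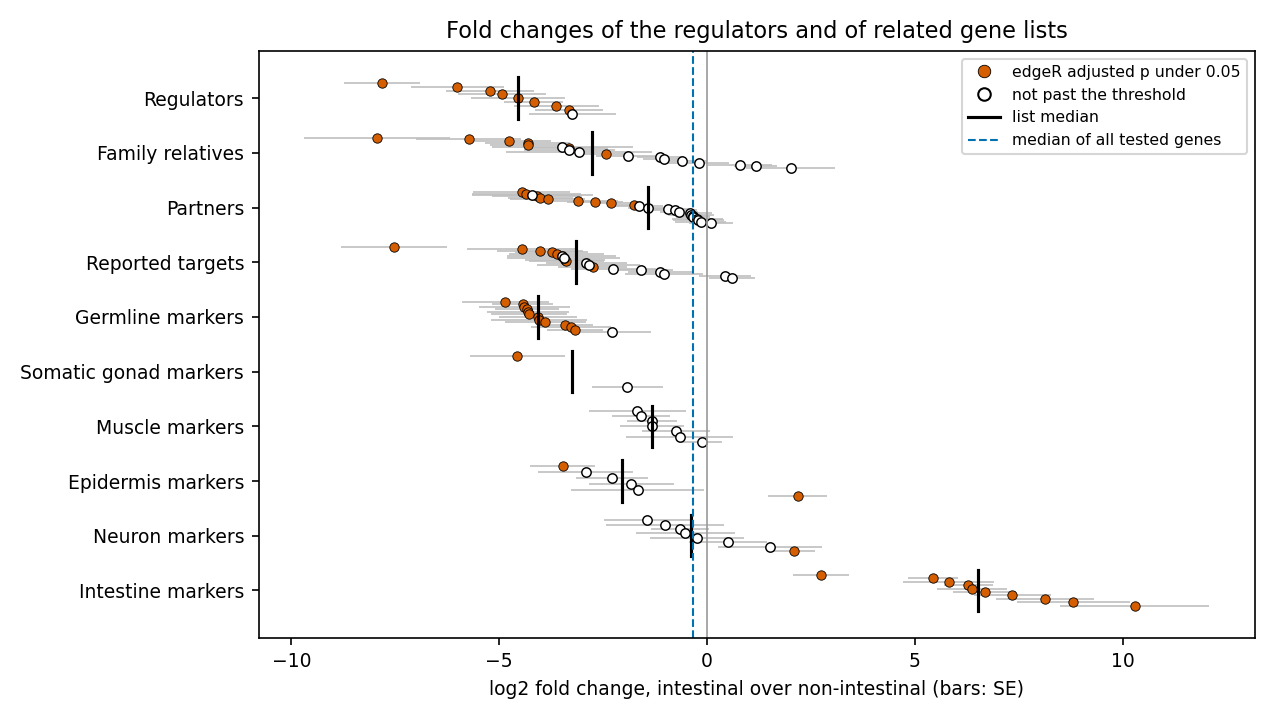
Fitted log2 fold change of intestinal over non-intestinal cells for each tested gene of the regulators, the related lists and the cell type markers, with SE bars, list medians as black lines and the median of all tested genes (−0.34) as a dashed line. The regulators and germline markers lie to the left of the dashed line, partners range from −4.46 to 0.10, targets from −7.52 (glp-1) to 0.59, and intestine markers lie to the right.

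The germline markers were set beside the regulators as well. The log2 fold changes of those called with the largest size were −4.85 ± 1.05 for the P granule gene pgl-3, −4.43 ± 0.74 for glh-1, −4.39 ± 1.09 for the meiotic axis gene htp-3 and −4.32 ± 0.77 for the cold shock domain gene cey-2 (SE). The list median was −4.07, beside −4.55 for the regulators. Whether these medians differ was not tested.

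The profile of the 9 tested regulators, as mean log2 CPM, was 0.264, 2.29 and 0.557 over intestinal replicates 1 to 3, against 5.89, 6.18 and 5.59 over non-intestinal replicates 1 to 3. The 5 genes with the highest Pearson correlation to it over the 6 libraries were C16A11.4 (0.997), nop-1 (0.997), rpl-11.1 (0.996), F01G4.4 (0.995) and F42A9.6 (0.995). They came from 4596 genes above the median level, of which 176 had a correlation above 0.95. The 6 points fall into 2 groups, so this likeness mostly describes the difference between groups. The gene rpl-11.1, a ribosomal protein gene, had 70.0, 239 and 70.3 CPM in intestinal libraries, against 1455, 2524 and 1801 CPM in non-intestinal libraries. Among intestinal libraries it was highest in replicate 2, as is the profile that it was chosen to match, so this is no separate observation.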

How the data were processed

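The authors deposited 1 table of raw counts, whole numbers per row and library with no normalization. STARsolo 2.7.10a and the builds WBcel235 and ce11 are named in the submitters' processing notes. Annotation, strand use and use of molecular identifiers are not given in the sources used here. Of 15472 rows, 14605 were worm genes, and 14387 of these matched the RefSeq table. Rows of RIT names, spike-ins and the reporter held from 0.377% to 0.796% of a library and were left out. Intestinal and non-intestinal libraries were compared by the edgeR 4.0.16 quasi-likelihood test in R 4.3.3, with TMM scaling, robust estimation and filterByExpr (minimum count 10, minimum total 15). This left 9203 genes, with Benjamini-Hochberg adjustment over all of them and a threshold of 0.05. CPM are TMM-scaled over all gene rows, and log2 CPM have a prior count of 3. The fit was also run on simulated counts with less spread between libraries than these data have. There it recovered 38 of 100 4-fold changes and 99 of 100 16-fold changes, and called 7 unchanged genes. Because of the smaller spread, this does not show how the fit performs on these data. DESeq2 1.42.0 was an alternative.

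Members and lists were chosen with earlier results of these data known. The text names the 10 members, elt-2, the nearest neighbours, the most correlated genes, up to 6 called and 3 least changed genes per related list and 4 germline markers. Other genes are named as chosen after their values were seen. The listed genes cpb-2, meg-2 and bli-1 were not analysed here. No sequence was used, so protein and promoter features are not reported. The deviations of same-numbered libraries from their group means correlated at 0.278, 0.157 and 0.279, so the replicate numbers were taken as pairs in an additional fit with a replicate block. The labels do not say whether replicates came from separate cultures. P-values set the difference between groups against the spread among these libraries. They come from the fit without the block, except where another setting is named.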

Additional observations from a re-analysis of the deposited data

How the results depend on the processing

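The number of regulators called lower was 8 of 9. It was 9 of 9 under RLE scaling, library totals alone, a filter of 10 counts in 3 libraries, the DESeq2 Wald test, the replicate block and equal depth. With no filter it was 9 of 10, as nos-2 was tested there too. When 1 library was left out it was from 6 to 9. Each of the 9 regulators other than nos-2 kept a negative log2 fold change in each of the 13 alternatives. The calls of oma-2, pie-1, gld-1, mex-3 and fbf-1 held in each of these. The call of fbf-2 was lost without intestinal replicate 1 (edgeR adjusted p = 0.073), that of pos-1 without non-intestinal replicate 2 (0.058), and that of nos-1 without intestinal replicate 1, intestinal replicate 3 or non-intestinal replicate 2 (0.058, 0.076 and 0.092). Without intestinal replicate 2 the log2 fold change was −6.35 for gld-1, −6.16 for pos-1, −7.72 for pie-1, −5.44 for oma-1 and −5.70 for nos-1. The cause was not tested. With the counts of oma-1 and oma-2 added, the log2 fold change was −4.33. The replicate block changed no call among the regulators but that of oma-1, and called lower 10 relatives against 7 without it, 12 partners against 9 and 11 targets against 8.

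Over all tested genes 1949 were called, 1246 higher and 703 lower. Under library totals alone 1061 were higher and 1329 lower, with a median log2 fold change of all genes of −0.84. DESeq2 called 3057 in total and 1379 lower. Lower genes numbered 779 under RLE scaling, 951 with no filter and 647 with the filter of 10 counts in 3 libraries. They numbered 906 with the replicate block and 762 at equal depth. Leaving out 1 library gave from 986 to 1913 in total, 788 to 1393 higher and 198 to 647 lower. Leaving out intestinal replicate 1 gave 198 lower genes, non-intestinal replicate 1 gave 380, and non-intestinal replicate 2 gave 350. Called lower were 11 family relatives under library totals alone and from 3 to 9 when 1 library was left out, from 3 to 9 partners and from 1 to 10 targets. Intestinal replicate 3 had at most 4 counts of each regulator except mex-3, so differences between regulators were not detectable there.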
